A study of Homo sapiens with 8 samples.

Results

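The replication-dependent histone genes encode the linker histone H1 and the core histones H2A, H2B, H3 and H4 that package newly copied DNA. They were followed across 8 RNA-seq libraries of K562, an established human leukaemia cell line. Members were chosen by gene name alone, as every row named H1-1 to H1-6 or with the prefix H2AC, H2BC, H3C or H4C and a number (older names HIST1H, HIST2H and HIST3H), and 66 of the 19447 named rows of the count table qualified. They comprised 6 H1, 16 H2A, 17 H2B, 13 H3 and 14 H4 genes, of which 55 lie in the cluster on chromosome 6 (6p22) and 11 in the cluster on chromosome 1 (1q21). The series compared K562 cells with and without Lip-1, under a title that names a halt of the cell cycle and pyroptosis and apoptosis. The labels do not expand the name Lip-1, which is commonly used for liproxstatin-1, a ferroptosis inhibitor. The 4 controls were untreated and labelled Day 0. The 4 treated libraries were labelled Day 1 and 24 h of Lip-1, with 10 µM for replicates 2 to 4 and 20 µM for replicate 1. All 8 carry the genotype label WT and were grown in the same medium. Treatment and day coincide, so they cannot be told apart, and the labels state neither a vehicle for the controls nor that replicates were separate cultures. The p-values therefore measure the spread between these libraries, which may be technical.

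Cells make these histones mainly in S phase, when each new stretch of DNA needs a full set of nucleosomes, and the genes sit in clusters of many near-identical copies. Their mRNAs are unlike nearly all others, since most lack introns and end in a conserved stem-loop bound by the stem-loop binding protein SLBP instead of in a poly(A) tail. The coactivator NPAT switches the clusters on at the start of S phase, and the mRNAs are destroyed when DNA synthesis stops. Some members also make polyadenylated transcripts, which cells can keep outside S phase. The libraries were made from RNA depleted of ribosomal RNA and copied with random primers, a method that does not select for poly(A) tails.

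Total counts per library ran from 71151415 to 141307169, and the histone genes together took 0.0465% to 0.1333% of them. A histone gene's level is given in CPM (counts per 1000000 counts of the library), without correction for gene length. Levels are therefore compared between libraries and not between genes. CPM carries no TMM scaling (trimmed mean of M values), which the tests used, so libraries close in CPM can change order after it. All 12 of the K562 markers listed in the analysis (globins, erythroid factors and others) reached 1 CPM. Their summed level was 5722 to 10227 CPM in the controls and 3875 to 6412 CPM in the treated libraries, and its part in the histone results was not tested. Of the 66 histone genes, 2 (H3C8 and H2BC1) were at 0 in every library and 21 were at 0 in at least 1, 14 had under 10 counts in every library and 17 had over 100 counts in every library.

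Histone gene counts were higher at 10 µM Lip-1 than in the controls. Summed over all 66 genes, the level was 483, 669, 740.1 and 465 CPM in controls 1 to 4 and 1333, 1221 and 886 CPM in the 3 libraries at 10 µM, and the single 20 µM library had 512 CPM. In CPM every 10 µM library lay above every control, and the 20 µM library lay within the control range. With TMM scaling replicate 4 at 10 µM was level with control 3 (log2 ratios to the control mean of 0.4 and 0.404). Each treated library was above the control of its own number, at 20 µM by the least (512 against 483 CPM). Controls 1 and 4, which like the 20 µM library have names in letters where controls 2 and 3 have numbers, were the lower ones. The means were 589 ± 137 CPM (SD, n = 4) in the controls and 1147 ± 232 CPM (n = 3) at 10 µM, a ratio of 1.95. In bulk RNA, a change in the number of cells in S phase and a change in histone RNA per cell cannot be told apart.

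A pair of genes carried most of that sum. H2BC12 made up 40.3% to 59.1% of the histone counts of a library and H1-2 made up 20.2% to 30.0%. Without them, the other genes summed to 105 to 153 CPM in the controls, to 349.7, 334 and 243 CPM at 10 µM and to 196 CPM at 20 µM. All 4 treated libraries then lay above all 4 controls, by a ratio of means of 2.43 at 10 µM and of 1.55 at 20 µM. The 20 µM library was therefore inside the control range over all histone genes and above it once H2BC12 and H1-2 were left out. The sums carry no test.

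**Figure D1:**
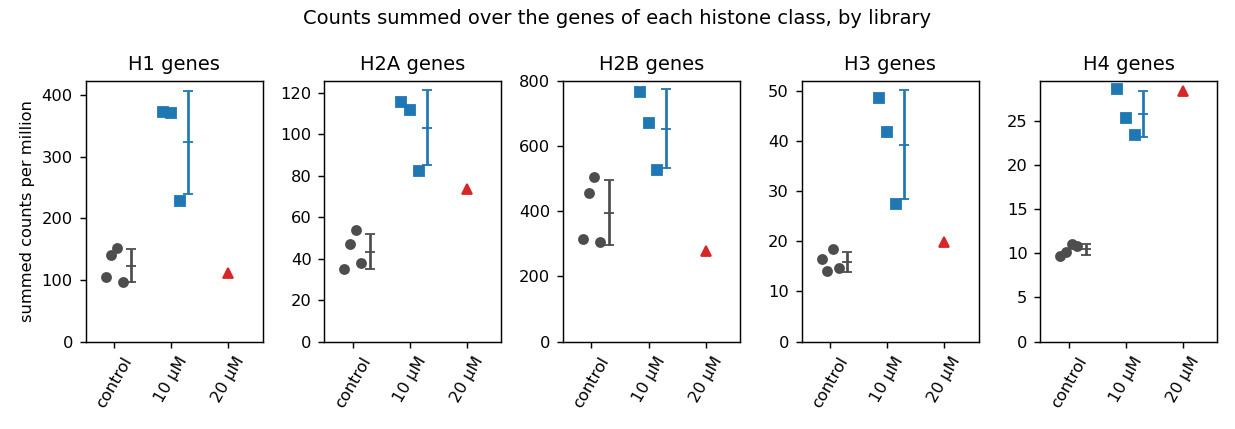
Summed CPM over the genes of each histone class, with 1 point per library and bars for mean ± SD (controls n = 4, 10 µM n = 3, 20 µM a single library). In CPM each class at 10 µM lies above its controls, but with TMM scaling the H2B groups overlap. At 20 µM the H4 sum (28.4 CPM) is as high as at 10 µM, and the H2B sum (279 CPM) is below every control. Without H2BC12 the 20 µM H2B sum (72.8 CPM) is above every control in CPM, but below control 3 with TMM scaling.

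Each class was higher at 10 µM, and the position of the 20 µM library differed from class to class. For H4 the sums were 9.67, 10.1, 11.1 and 10.8 CPM in the controls, 28.5, 25.3 and 23.4 CPM at 10 µM and 28.4 CPM at 20 µM. All treated libraries stood clear of the controls, with ratios to the control mean of 2.47 at 10 µM and 2.72 at 20 µM. For H2A the sums were 34.9 to 53.8 CPM in the controls, 82.3 to 116 CPM at 10 µM and 73.5 CPM at 20 µM, so the 20 µM library lay between the other groups. For H3 they were 14.1 to 18.5 CPM, 27.4 to 48.8 CPM and 19.9 CPM. The H3 value at 20 µM was only just above the highest control in CPM. With TMM scaling it lay below control 3 (log2 ratios to the control mean of 0.21 and 0.295). For H1 the 10 µM libraries gave 374, 371 and 228 CPM against 96.0 to 152 CPM in the controls, and the 20 µM library (111 CPM) was among the controls. For H2B they gave 766, 671 and 526 CPM against 305 to 505 CPM. With TMM scaling, however, replicate 4 at 10 µM lay below control 3 (log2 ratios to the control mean of 0.218 and 0.425). The 20 µM library, at 279 CPM, was below all controls. That low H2B value rests on H2BC12. Without it the H2B sums were 42.9 to 67.7 CPM in the controls, 107 to 153 CPM at 10 µM and 72.8 CPM at 20 µM. The 20 µM library was then above every control in CPM, but below control 3 with TMM scaling (factors of 1.033 and 0.9029). Differences between classes in the response to dose were not tested, since 20 µM has 1 library.

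Gene by gene, the test set the 4 treated against the 4 control libraries (edgeR quasi-likelihood, adjusted over all 13101 genes tested). Of 46 histone genes with enough counts to test, 13 were higher with Lip-1 (28.3%, against 7.47% of all genes tested) and 0 were lower (against 6.69%). At an unadjusted p under 0.05 the test gave 22 of the 46 histone genes and 4459 of the 13101 genes tested. The median log2 fold change over the 46 was 0.88, against 0.08 over all genes tested, with 39 above 0 and 7 below. Every treated library lay above every control for 18 of the 46 (39.1%, against 18.1% of all genes tested), and 12 of the 13 called genes were among these 18. The 20 genes not tested had at most 0.483 CPM in any library. The called genes were H2AC6, H2AC13, H2AC15, H2AC18, H2BC5, H2BC7, H2BC15, H2BC21, H3C10, H4C5, H4C8, H4C12 and H4C14. No H1 gene was called.

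That count changed with the libraries used. Without the 20 µM library it was 15, and 12 of the 13 genes kept their call. Leaving out control 1, 2, 3 or 4 left 3, 2, 3 and 2 called, and leaving out replicate 2, 3 or 4 at 10 µM left 6, 3 and 3. H2BC5 and H4C8 kept their call in each of these 8 fits, and all 13 genes kept their direction. Over all genes, leaving out a control left between 64 and 567 calls, against 1855 with all libraries. Leaving out replicate 2, 3 or 4 at 10 µM gave 2063, 814 and 312 calls over all genes. Leaving out the 20 µM library gave 3021. The submitters named some libraries with letters (controls 1 and 4, 20 µM replicate 1 and 10 µM replicate 4) and the others with numbers, a pattern the labels do not call a batch. Among the number-named libraries alone 19 histone genes were called higher, with 1652 of 12973 genes higher in all, and among the letter-named ones 0, where edgeR called 0 of 13956 genes in all (2694 at an unadjusted p under 0.05) and the median over the histone genes was 0.74.

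At 10 µM alone (a fit with 3 dose levels, 14857 genes tested) 15 of 51 histone genes were higher (29.4%, against 9.34% of all genes tested) and 0 were lower (against 9.79%). The median log2 fold change was 0.99, against 0.05 over all genes, and 44 of the 51 were above 0. By class, 1 of 5 tested H1 genes, 5 of 14 H2A, 3 of 13 H2B, 2 of 9 H3 and 4 of 10 H4 genes passed. Compared with the test over all treated libraries, H1-2, H2AC11 and H3C2 joined and H2BC15 dropped out, with 12 genes called in both. These comparisons share their controls and their 10 µM libraries. With the replicate number as a block 23 were higher (against 16.2% of all genes), the 8 added genes being H1-4, H2AC8, H2BC4, H2BC8, H2BC11, H2BC12, H2BC15 and H3C4. Without replicate 3 at 10 µM the count was 9. The 7 genes with a fold change below 0 (H2AC7, H2AC20, H3C1, H3C7, H3C12, H4C2 and H4C3) had control means of at most 1.43 CPM.

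**Figure D2:**
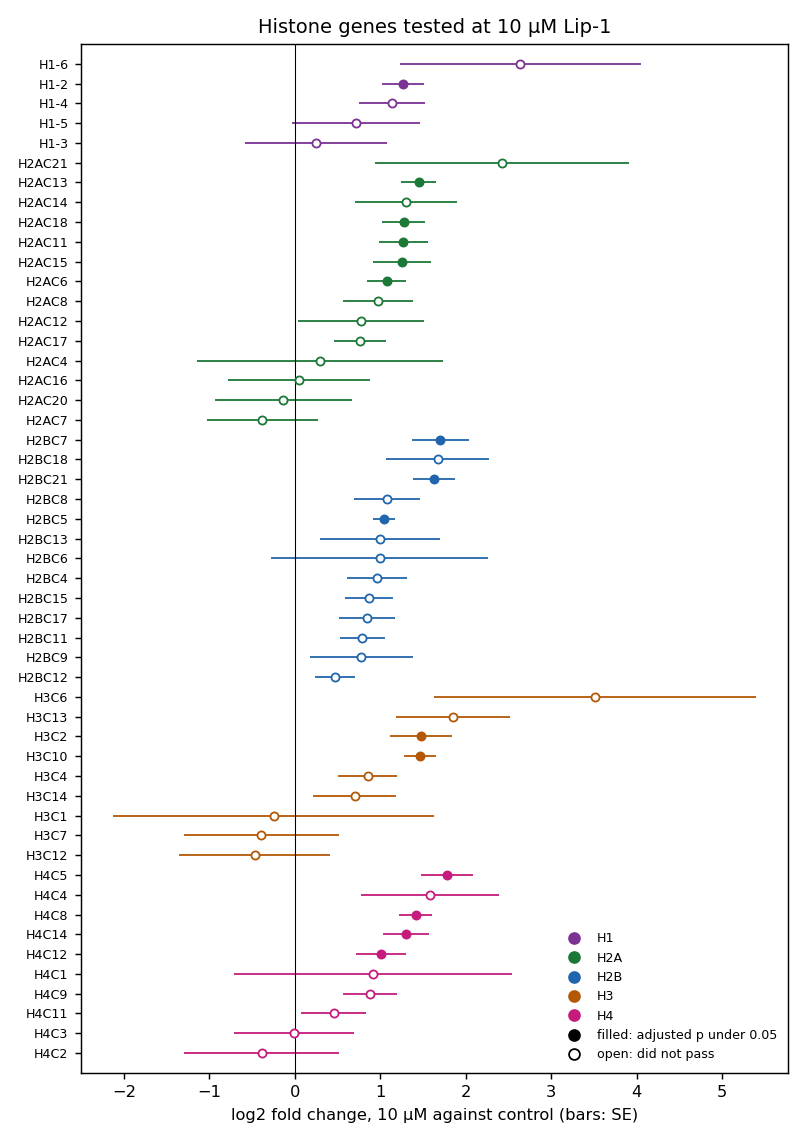
Log2 fold change at 10 µM against control for the 51 histone genes tested, by class, with bars of 1 SE from the edgeR fit and filled points for adjusted p under 0.05. Of the points 44 lie to the right of 0, and the 15 filled ones run from 1.00 (H4C12) to 1.78 (H4C5).

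The sequence that marks these mRNAs was looked up in the annotated transcripts. A 16-base stem-loop, searched as GG, 3 bases, TTTTCA, 3 bases and CC on the sense strand, stood after the stop codon of some of these genes. It began 22 to 67 bases past the stop codon, with a median of 40. Many annotated transcripts end too early to hold it. Of the 28 genes with at least 60 annotated bases past the stop codon 19 had it. With no such limit on length it stood in 20 of the 66 genes and in 48 of 19600 other coding genes (0.245%). It took only 3 forms, which differ in the stem. The search fixed the loop, so forms could differ only in the stem, and a stem-loop with another loop would be missed. The stem-loops of 6 genes called at 10 µM are given here with 5 bases on each side, in GENCODE release 29 transcripts of GRCh38 written as DNA, 5′ to 3′, with the stem-loop in capitals.
H4C8: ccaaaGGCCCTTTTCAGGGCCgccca
H4C5: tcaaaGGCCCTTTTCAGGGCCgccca
H2AC6: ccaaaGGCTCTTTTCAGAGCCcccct
H2BC21: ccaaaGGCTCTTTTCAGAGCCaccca
H3C10: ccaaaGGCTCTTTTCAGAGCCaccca
H2AC11: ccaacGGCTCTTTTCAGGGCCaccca
The form of H2AC6, H2BC21 and H3C10 was found in 15 genes, that of H4C8 and H4C5 in 4 genes and that of H2AC11 in 1. For each of the 6 the longest annotated transcript runs on past the stem-loop, by 630 bases in H4C8, 1022 in H4C5, 1114 in H2AC6, 1729 in H2BC21, 769 in H3C10 and 1761 in H2AC11. The deposited counts are per gene, so transcripts that stop at the stem-loop and transcripts that run past it were counted together. Where the reads fell along the gene was not analysed here.

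H4 is a core histone that pairs with H3, and 4 of its 9 tested genes were called over all treated libraries. H4C8 (chromosome 6, 26285126 to 26285534, minus strand) had 2.91, 2.97, 3.55 and 3.55 CPM in controls 1 to 4, 10.2, 8.45 and 9.76 CPM at 10 µM and 13.5 CPM at 20 µM. All treated libraries were far above all controls, and the 20 µM library was the highest of the 8. The mean rose from 3.25 ± 0.356 CPM (SD, n = 4) to 9.47 ± 0.914 CPM (n = 3) at 10 µM. On the log2 scale the rise was 1.57 over all treated libraries (SE 0.22, edgeR adjusted p = 0.00936) and 1.41 at 10 µM (SE 0.19, edgeR adjusted p = 0.00247).

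H4C5 had 0.842, 0.800, 0.949 and 0.773 CPM in the controls, 3.10, 3.79 and 2.57 CPM at 10 µM and 2.30 CPM at 20 µM, and rose by 1.69 on the log2 scale (SE 0.30, edgeR adjusted p = 0.0166). The control mean was 0.841 ± 0.0771 CPM (SD, n = 4), and the lowest treated library was the one at 20 µM. H4C14, in the chromosome 1 cluster, had 2.00, 1.19, 1.80 and 2.33 CPM in the controls, 5.31, 4.71 and 4.72 CPM at 10 µM and 3.91 CPM at 20 µM (log2 fold change 1.23, SE 0.27, edgeR adjusted p = 0.0255). H4C12 had 1.31, 1.13, 1.35 and 1.02 CPM, then 2.83, 2.84 and 2.24 CPM, and 2.50 CPM at 20 µM (0.99, SE 0.27, edgeR adjusted p = 0.0435). In these genes too, treated libraries stood clear of all controls. The coding sequence of H4C14 is identical to that of H4C15, and that of H4C12 to that of H4C11, so the split of reads within each pair is uncertain. Summed over each pair, all 3 libraries at 10 µM and the 20 µM library still lay above all controls (ratios at 10 µM of 2.69 for H4C14 and H4C15 and of 1.89 for H4C11 and H4C12).

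Among the H2A genes, whose product forms a dimer with H2B, 4 of 13 tested were called over all treated libraries. H2AC6 (chromosome 6, 26124172 to 26124690, plus strand) had 14.2, 16.9, 25.7 and 16 CPM in the controls, 43.4, 45.9 and 36.9 CPM at 10 µM and 38.5 CPM at 20 µM. Control 3 was the highest control, and every treated library was above it. The gene rose by 1.05 on the log2 scale (SE 0.23, edgeR adjusted p = 0.0248). H2AC18, on chromosome 1, had 6.99, 8.62, 9.07 and 5.71 CPM in the controls, 23.8, 21.9 and 14.6 CPM at 10 µM and 12.9 CPM at 20 µM (1.14, SE 0.27, edgeR adjusted p = 0.0320). Its coding sequence is identical to that of H2AC19, which had 9 counts in all.

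H2AC13 had 3.96, 5.07, 4.79 and 4.41 CPM in the controls, 15.1, 14.8 and 10.8 CPM at 10 µM and 4.97 CPM at 20 µM. Here the 10 µM libraries were all well above the controls, and the 20 µM library fell among them. Its log2 fold change was 1.20 over all treated libraries (SE 0.34, edgeR adjusted p = 0.0473) and 1.45 at 10 µM (SE 0.21, edgeR adjusted p = 0.00329). Of the 100-base windows of its coding sequence 79.3% occur in another member. H2AC15 had 0.927, 1.37, 1.20 and 1.69 CPM in the controls, 4.54, 3.23 and 2.28 CPM at 10 µM and 4.43 CPM at 20 µM (1.37, SE 0.34, edgeR adjusted p = 0.0341). H2AC11 had 2.62, 5.04, 3.82 and 5.23 CPM, then 12.5, 12 and 8.37 CPM, and 5.99 CPM at 20 µM. Its treated libraries all lay above the controls, and it passed at 10 µM (1.27, SE 0.29, edgeR adjusted p = 0.0169) but not over all treated libraries (1.10, edgeR adjusted p = 0.0522, 0.0222 with the replicate block).

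Among the H2B genes 4 of 12 tested were called over all treated libraries. H2BC5 (chromosome 6, 26158121 to 26171349) had 10.6, 9.92, 11.1 and 11.3 CPM in the controls, 25, 21.7 and 25.8 CPM at 10 µM and 21.4 CPM at 20 µM. The controls lay close together and all treated libraries were far above them, with means of 10.7 ± 0.619 CPM (SD, n = 4) and 24.2 ± 2.15 CPM (n = 3). On the log2 scale H2BC5 rose by 1.01 (SE 0.14, edgeR adjusted p = 0.00936), and at 10 µM by 1.04 (SE 0.13, edgeR adjusted p = 0.00196).

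H2BC21 (chromosome 1, 149884459 to 149886682, minus strand) had 10.6, 17.3, 16.7 and 11.3 CPM in the controls, 52.4, 53.8 and 35.5 CPM at 10 µM and 21.4 CPM at 20 µM, with a ratio of 3.38 between the means at 10 µM and control. The groups did not overlap, but the 20 µM library was closer to the controls than to 10 µM. The log2 fold change was 1.42 over all treated libraries (SE 0.33, edgeR adjusted p = 0.0294) and 1.63 at 10 µM (SE 0.25, edgeR adjusted p = 0.00400). H2BC7 had 0.807, 1.43, 1.25 and 1.13 CPM in the controls, 3.87, 5.28 and 3.15 CPM at 10 µM and 1.92 CPM at 20 µM (1.5, SE 0.38, edgeR adjusted p = 0.0359). H2BC15 had 2.26, 3.36, 2.66 and 1.83 CPM, then 5.03, 5.78 and 4.29 CPM, and its highest value, 7.16 CPM, at 20 µM (1.02, SE 0.29, edgeR adjusted p = 0.0488). At 10 µM alone H2BC15 had a log2 fold change of 0.86 (edgeR adjusted p = 0.0603, 0.0270 with the replicate block).

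H2BC12, which held 49.8% of all histone counts over the 8 libraries, did not pass. It had 273, 395, 437 and 258 CPM in the controls, 614, 521 and 419 CPM at 10 µM and 206 CPM at 20 µM. Replicate 4 at 10 µM was below control 3, so the groups overlapped, and the 20 µM library was the lowest of all. H2BC12 had a log2 fold change of 0.24 over all treated libraries (SE 0.34, edgeR adjusted p = 0.650) and of 0.47 at 10 µM (SE 0.24, edgeR adjusted p = 0.207, 0.0235 with the replicate block).

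H3, the partner of H4 in the nucleosome core, had 1 called gene of 7 tested. H3C10 (chromosome 6, 27810051 to 27810536) had 8.26, 6.73, 6.13 and 7.19 CPM in the controls, 25.7, 21.3 and 16.5 CPM at 10 µM and 8.31 CPM at 20 µM. The 10 µM libraries were all well above the controls, while the 20 µM library was level with control 1. The log2 fold change was 1.23 over all treated libraries (SE 0.32, edgeR adjusted p = 0.0370, 0.0522 with the replicate block) and 1.46 at 10 µM (SE 0.19, edgeR adjusted p = 0.00228). H3C2 had 0.793, 1.05, 1.28 and 0.784 CPM in the controls, 3.62, 3.26 and 2.02 CPM at 10 µM and 1.52 CPM at 20 µM. All its treated libraries were above all controls, and it passed at 10 µM (1.48, SE 0.37, edgeR adjusted p = 0.0243) but not over all treated libraries (1.29, edgeR adjusted p = 0.0570, 0.0313 with the block). H3C4 had 6.10, 4.71, 9.60 and 5.11 CPM, then 16.1, 14.1 and 7.62 CPM, and 7.29 CPM at 20 µM, with replicate 4 and the 20 µM library inside the control range, and it did not pass (0.70, edgeR adjusted p = 0.207, and at 10 µM 0.85, edgeR adjusted p = 0.120, 0.0285 with the block).

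The H1 genes encode the linker histone that binds DNA between nucleosomes. H1-2 (chromosome 6, 26055740 to 26056470, minus strand) had 104, 138, 149 and 94.6 CPM in the controls, 369.6, 366 and 225 CPM at 10 µM and 109.5 CPM at 20 µM. The 10 µM libraries were far above the controls and the 20 µM library was among them. At 10 µM H1-2 rose by 1.27 on the log2 scale (SE 0.24, edgeR adjusted p = 0.00899), and over all treated libraries its fold change was 1.01 (SE 0.37, edgeR adjusted p = 0.0938, 0.0382 with the replicate block). H1-4 had 1.10, 1.01, 1.66 and 0.937 CPM, then 2.52, 3.94 and 2.04 CPM, and 0.845 CPM at 20 µM, below every control, with 1.14 at 10 µM (edgeR adjusted p = 0.0692, 0.0431 with the block). H1-5 had 0.403, 0.185, 0.329 and 0.131 CPM in the controls, 0.788, 0.337 and 0.289 CPM at 10 µM and 0.258 CPM at 20 µM. Its groups overlapped, and at 10 µM the log2 fold change was 0.72 (edgeR adjusted p = 0.561).

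The other members that could be tested had lower levels or wider spread. H2BC8 had 2.09, 3.94, 6.16 and 2.81 CPM in the controls, 9.54, 9.96 and 6.77 CPM at 10 µM and 5.22 CPM at 20 µM. Its 10 µM libraries were above every control in CPM, but with TMM scaling replicate 4 was below control 3. Its 20 µM library was below control 3, and the log2 fold change at 10 µM was 1.08 (SE 0.39, edgeR adjusted p = 0.0824, 0.00811 with the block). H2AC8 had 2.14, 3.99, 4.30 and 1.85 CPM, then 7.99, 8.05 and 3.83 CPM, and 3.86 CPM at 20 µM, so replicate 4 and the 20 µM library overlapped the controls (0.98 at 10 µM, SE 0.41, edgeR adjusted p = 0.134, 0.0152 with the block). H4C9 had 1.30, 1.40, 0.860 and 1.20 CPM in the controls, 2.75, 2.47 and 1.89 CPM at 10 µM and 2.50 CPM at 20 µM. All its treated libraries lay above all controls without a call (0.88 at 10 µM, SE 0.31, edgeR adjusted p = 0.0830). H2BC18 had 0.715, 0.283, 0.531 and 0.991 CPM, then 3.29, 2.52 and 0.661 CPM, and 1.54 CPM at 20 µM (1.67 at 10 µM, SE 0.60, edgeR adjusted p = 0.0849). There replicate 4 stayed within the controls while replicates 2 and 3 were far above them. Members with larger fitted fold changes at 10 µM, such as H3C6 (3.52, SE 1.88), H1-6 (2.64, SE 1.41) and H2AC21 (2.42, SE 1.49), had mean levels of at most 0.416 CPM in either group and did not pass.

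The 15 members with too few counts for either fit were H1-1, H2AC1, H2AC19, H2BC1, H2BC3, H2BC10, H2BC14, H3C3, H3C8, H3C11, H3C15, H4C6, H4C7, H4C13 and H4C15. A further 5 (H2AC21, H2BC6, H3C1, H3C6 and H4C1) were tested in the 3-level fit alone. Among the genes with too few counts are H2AC19, H3C15 and H4C15, whose coding sequences are identical to those of H2AC18, H3C14 and H4C14. Those partners had 14.6 to 23.8, 0.688 to 1.28 and 4.71 to 5.31 CPM at 10 µM. So nearly all counts of each identical pair stood on 1 copy, and no statement about the other copy can be made from them.

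**Figure D3:**
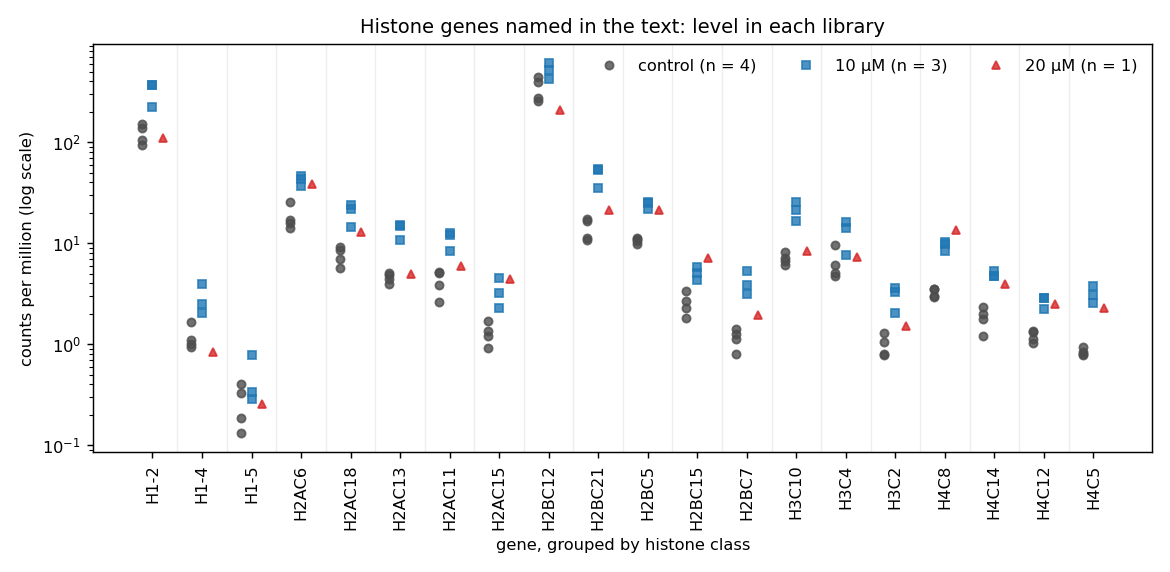
Levels in CPM of 20 histone genes in each library on a log axis, grouped by class, with 1 point per library (controls n = 4, 10 µM n = 3, 20 µM n = 1). In H4C8 the 20 µM library (13.5 CPM) is the highest point, while in H2BC12 it is the lowest (206 CPM).

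At 20 µM the histone genes were lower than at 10 µM in part. Of 51 tested, 6 were called lower (11.8%, against 14.6% of all genes tested) and 0 higher (against 11.7%), and the median log2 difference was -0.80, against 0.01 over all genes, with 41 of the 51 below 0. With no replicate at 20 µM, the test assumes that library to vary like the others. The 6 were H1-2 (-1.56, edgeR adjusted p = 0.0214), H2AC13 (-1.46, edgeR adjusted p = 0.0148, 0.0503 with the replicate block), H2BC4 (-2.11, edgeR adjusted p = 0.0318), H2BC11 (-1.78, edgeR adjusted p = 0.0200), H2BC12 (-1.33, edgeR adjusted p = 0.0337) and H3C10 (-1.36, edgeR adjusted p = 0.0128). The share called is near the background, so it is not a result about the histone genes. Of the 10 H4 genes tested 0 were called, and at an unadjusted p under 0.05 the count was also 0. H4C8 had a log2 difference of 0.51 (SE 0.28, edgeR adjusted p = 0.215). Over all 51 histone genes tested, the 20 µM library was above every control in 23 and below every 10 µM library in 30, in CPM. Of the 15 genes called at 10 µM, these counts were 13 and 11. The matching shares over all genes were not taken, so these counts are not read as a result about the histone genes. Those 15 were selected for high 10 µM libraries, which by itself favours a 20 µM library below them.

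Of these 6 genes, H2BC4 and H2BC11 had the largest log2 differences between the doses. H2BC4 had 5.41, 11, 10.8 and 6.93 CPM in the controls, 20.4, 23.3 and 10.9 CPM at 10 µM and 4.27 CPM at 20 µM. H2BC11 had 7.90, 11.3, 13.8 and 8.73 CPM, then 24.9, 19.6 and 15 CPM, and 5.79 CPM. In both the 20 µM library was the lowest of the 8. At 10 µM their log2 fold changes were 0.96 (edgeR adjusted p = 0.0867, 0.00384 with the replicate block) and 0.79 (edgeR adjusted p = 0.0706, 0.00959 with the block).

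Histone genes known to make polyadenylated transcripts as well were taken as a list of 8 (H1-2, H2AC6, H2BC4, H2BC5, H2BC8, H2BC11, H2BC12 and H2BC21). Over all treated libraries 3 were higher (against 7.47% of all genes tested) and 5 with the replicate block (against 11.1%), with a median of 0.97. At 10 µM 4 were higher (against 9.34%) and 8 with the block (against 16.2%), with a median of 1.06. At 20 µM against 10 µM 4 of the 8 were lower (against 14.6%), with a median of -1.24. The list holds H2BC12 and H1-2, and so most of the histone counts.

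Many copies share sequence, which limits what a count for 1 gene means. Of the 66 genes, 50 have no 100-base stretch of coding sequence in common with another member, and 8 share over 90% of such stretches. The 8 form 4 pairs with identical coding sequence, H2AC18 with H2AC19, H3C14 with H3C15, H4C11 with H4C12 and H4C14 with H4C15. Over all treated libraries 7 of the 13 called genes had no shared 100-base stretch and 3 shared over 90%, and at 10 µM the counts were 10 and 3 of 15. By cluster, 10 of 39 tested genes at 6p22 and 3 of 7 at 1q21 were called over all treated libraries. Some members also overlap in the annotation (H4C14 with H3C14, H2AC15 with H2BC15, H2BC12 with H4C9, H3C4 with H2AC7 and others). The use of strand in counting is not given in the sources used here, so reads in the overlaps cannot be assigned to 1 gene.

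Among the 61 genes with a RefSeq promoter window, an H2A and an H2B gene start back to back in 10 places, 194 to 248 bases apart, around a shared promoter. H2AC12 has no such window and was left out of this search. Its RefSeq start (27147106, plus strand) also lies back to back with that of H2BC12 (27146858, minus strand). Neither of them was called over all treated libraries. Both members of H2AC15 and H2BC15, 194 bases apart, were higher over all treated libraries. Their GENCODE spans overlap, so reads in the overlap cannot be assigned to either gene alone. In H2AC6 and H2BC4 (246 bases apart) and in H2AC13 and H2BC13 (244 bases apart) the H2A gene was called and the H2B gene was not. In H2AC20 and H2BC21 (236 bases apart) and in H2AC7 and H2BC7 (223 bases apart) the H2B gene was called. Their H2A partners had log2 fold changes of -0.34 (edgeR adjusted p = 0.758) and -0.55 (edgeR adjusted p = 0.555), from control means of 0.428 and 1.43 CPM. H2AC7 lies within the RefSeq span of H3C4, so its reads cannot be assigned to H2AC7 alone. Differences within a pair were not tested.

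Promoters of 4 genes called higher at 10 µM are shown, taken from classes with different promoters. Windows of 250 bases before to 50 after the start came from RefSeq on GRCh38.p14, where 61 of the 66 genes had an entry. Motifs were searched on both strands as the octamer ATTTGCAT, the CCAAT box CCAAT, the TATA box TATAAA, the H1 element AAACACA and the H4 element GGTCCG, and matches stand in capitals. In H2BC21 a CCAAT match overlaps a reversed H4 element by 2 bases.
H1-2, chr6:26056421-26056720, minus strand: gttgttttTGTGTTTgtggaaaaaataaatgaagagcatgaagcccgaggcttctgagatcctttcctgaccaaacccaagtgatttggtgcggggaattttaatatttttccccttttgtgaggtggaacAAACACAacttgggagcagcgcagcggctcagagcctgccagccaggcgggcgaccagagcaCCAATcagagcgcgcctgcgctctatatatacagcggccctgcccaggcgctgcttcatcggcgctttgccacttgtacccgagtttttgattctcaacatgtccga
H2AC6, chr6:26123922-26124221, plus strand: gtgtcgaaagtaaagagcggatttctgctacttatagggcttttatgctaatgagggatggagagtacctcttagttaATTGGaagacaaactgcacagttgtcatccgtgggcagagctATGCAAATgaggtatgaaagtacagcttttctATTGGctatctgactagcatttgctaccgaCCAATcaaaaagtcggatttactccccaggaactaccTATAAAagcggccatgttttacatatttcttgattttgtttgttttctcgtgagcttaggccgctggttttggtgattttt
H2BC21, chr1:149886633-149886932, minus strand: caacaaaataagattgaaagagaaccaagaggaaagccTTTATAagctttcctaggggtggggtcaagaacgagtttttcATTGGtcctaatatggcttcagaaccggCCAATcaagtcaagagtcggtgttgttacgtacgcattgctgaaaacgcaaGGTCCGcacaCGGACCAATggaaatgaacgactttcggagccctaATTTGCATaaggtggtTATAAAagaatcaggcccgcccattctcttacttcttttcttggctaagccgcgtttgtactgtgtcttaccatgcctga
H4C8, chr6:26285485-26285784, minus strand: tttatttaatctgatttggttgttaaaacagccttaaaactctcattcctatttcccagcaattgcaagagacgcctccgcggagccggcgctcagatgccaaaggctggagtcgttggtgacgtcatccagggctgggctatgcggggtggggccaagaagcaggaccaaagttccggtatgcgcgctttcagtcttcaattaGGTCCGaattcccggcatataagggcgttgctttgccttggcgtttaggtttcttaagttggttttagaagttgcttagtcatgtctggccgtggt
The octamer was in 26 of the 61 histone promoters (42.6%, against 1.77% of all 35116 promoters in the table), in 11 of 15 H2A and 14 of 17 H2B genes and in 0 of 12 H4 genes. The CCAAT box was in 52 (85.2%, against 34.61%) and the TATA box in 41 (67.2%, against 11.53%). The H1 element was in 6 of 6 H1 promoters and in 9 histone promoters in all (14.8%, against 5.64%). The H4 element was in 11 of 12 H4 promoters and in 14 in all (23.0%, against 11.28%). The octamer and the H1 and H4 elements thus differed most between classes. The CCAAT box was in every H1, H2A, H2B and H3 promoter searched and in 3 of 12 H4 promoters. The TATA box was found in each class, in 3 of 6 H1, 12 of 15 H2A, 12 of 17 H2B, 8 of 11 H3 and 6 of 12 H4 promoters. Windows of back-to-back H2A and H2B genes overlap, and H3C4 has the same window as H2AC7. The same site can therefore be counted in both classes, and these counts are not of independent promoters. A match describes the letters in the window and is not evidence of a bound factor.

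Genes that transcribe, process and carry the histones were not called higher in either comparison with control. SLBP, which binds the stem-loop shown above, had 218, 204, 214 and 214 CPM in the controls, 159.6, 167 and 161 CPM at 10 µM and 64.8 CPM at 20 µM. All treated libraries were below all controls, and the 20 µM library was lowest by far. SLBP fell by 0.51 on the log2 scale at 10 µM (SE 0.09, edgeR adjusted p = 0.00667) and by a further 1.33 from 10 to 20 µM (SE 0.15, edgeR adjusted p = 0.000585). Over all treated libraries it did not pass (-0.74, SE 0.27, edgeR adjusted p = 0.0887). NPAT had 42.6, 48.1, 38.2 and 47.6 CPM in the controls, 50.3, 64.7 and 60.8 CPM at 10 µM and 37.4 CPM at 20 µM, and did not pass in either comparison with control (0.15, edgeR adjusted p = 0.565, and 0.28 at 10 µM, edgeR adjusted p = 0.137).

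**Figure D4:**
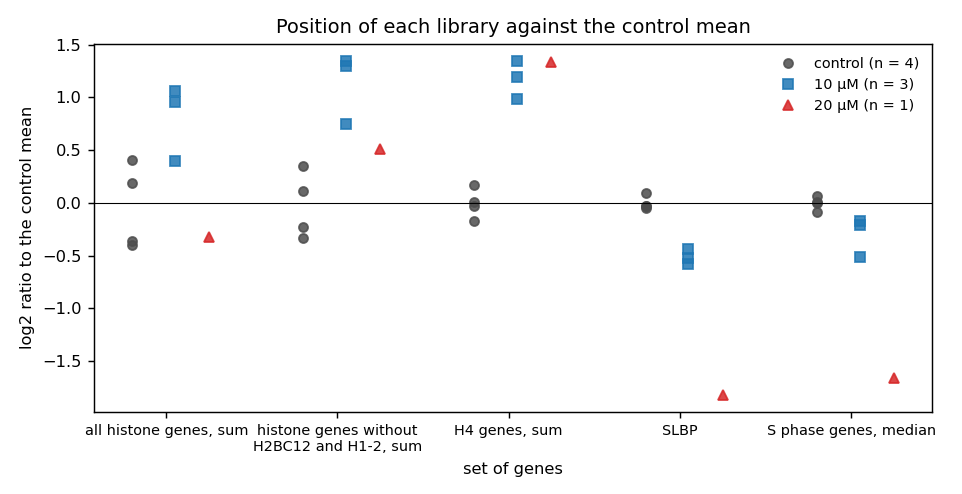
Log2 ratio of each library to the control mean, scaled by TMM (trimmed mean of M values), for 3 sums of histone genes, for SLBP and for the median S phase gene (controls n = 4, 10 µM n = 3, 20 µM n = 1). At 20 µM the H4 sum is at 1.34 while SLBP is at -1.82 and the S phase median at -1.66.

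Of 31 listed genes for 3′ end processing and turnover of histone mRNA, 7 were lower over all treated libraries (against 6.69% of all genes tested) and 0 higher (12 and 1 with the replicate block), with a median of -0.36. Those with the smallest p were SRRT (-0.67), a partner of the cap-binding complex, UPF1 (-0.57), a helicase of mRNA decay, LSM1 (-0.52), of the decay ring, and LSM10 (-0.51), of the U7 particle that cuts histone pre-mRNA. At 10 µM 14 of the 31 were lower (against 9.79%) and 0 higher. Of 16 genes for histone gene transcription 0 passed over all treated libraries (0 higher and 1 lower with the block), and at 10 µM 1, the CCAAT-binding subunit NFYA, was lower (-0.41). Of 28 histone chaperones and importers 5 were lower over all treated libraries (against the same 6.69%) and 0 higher (9 lower with the block), among them the importers IPO4 (-1.33) and KPNB1 (-0.63), the FACT subunit SSRP1 (-0.79) and DNAJC9 (-0.43). IPO4 had 198 to 219.7 CPM in the controls, 95.2 to 111 CPM at 10 µM and 48.8 CPM at 20 µM.

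The histone variants listed as replication-independent were not called in the comparisons with control. Of 22 such genes, 12 could be tested over all treated libraries, and 0 were higher and 0 lower (1 and 1 with the replicate block). At 20 µM against 10 µM 4 of 16 were lower (against 14.6% of all genes tested), H3-3A (-1.11), MACROH2A1 (-0.90), H2AZ2 (-0.77) and H2AZ1 (-0.64). H2AX, the variant phosphorylated at DNA breaks, had a log2 fold change of -0.57 (edgeR adjusted p = 0.0866).

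S phase genes differed mainly between the doses. Of 43 listed, 36 were lower at 20 µM than at 10 µM (against 14.6% of all genes tested), with a median of -1.31. At 10 µM against control 14 were lower (against 9.79%), with a median of -0.27. Over all treated libraries 1 was lower and 0 higher (against 6.69% lower), with a median of -0.50, and that gene was POLD1, a DNA polymerase subunit (-0.66). Against the control mean, the median S phase gene stood at -0.21, -0.17 and -0.51 in the 10 µM libraries (log2) and at -1.66 in the 20 µM library. In the same libraries the sum over all histone genes stood at 1.06, 0.95 and 0.40 and at -0.32, and the H4 sum at 1.34, 1.19 and 0.98 and at 1.34. Among the 10 µM libraries replicate 4 was lowest in both the S phase median and the histone sums. The part of the S phase genes in the histone result was not tested.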

How the data were processed

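Gene expression was measured by RNA-seq in 8 libraries of K562 cells. The authors deposited 1 table of raw counts, whole numbers by gene symbol, with 1 column for each library. The submitters' processing notes name bcl2fastq 2.0, HISAT2, StringTie, DESeq2 and limma on hg38, with no roles given. The annotation, the use of strand and the treatment of reads that match several histone copies are not given in the sources used here. There were 401 entries at 1 count and 2958 at 4 counts, so a count may not be 1 read. Left out were 9 lines that name no gene. Total counts were 71151415 to 141307169, and low counts limit precision most in the 14 genes with under 10 counts in every library.

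Tests used R 4.3.3 and edgeR 4.0.16 (filterByExpr, TMM factors of 0.9029 to 1.085, quasi-likelihood, two-sided) over all genes, with Benjamini-Hochberg adjustment at 0.05. Treated libraries were tested against controls, and a 3-level fit set 10 µM against control and 20 µM against 10 µM. The SE was taken from the log2 fold change and its F statistic. Alternatives were DESeq2 1.42.0, voom in limma 3.58.1, other scalings and filters, a replicate block and leaving out libraries. The test was checked on simulated data.

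Same-numbered control and treated libraries deviated together across genes (correlations 0.4532, 0.2506, 0.3899 and 0.2622). Control 2 correlated more with 10 µM replicate 3 (0.3097) than with replicate 2, and control 3 correlated with replicate 2 at 0.242. These libraries are all number-named, so for them the correlations do not separate pairing from naming. The numbers, which the labels give, were taken to pair the libraries, and the replicate block rests on that choice. The members, lists and tests were chosen with earlier results of these data known. Named were the 3 genes of each class with the highest mean level, every member called over all treated libraries or at 10 µM, the genes of each companion list called over all treated libraries (the 4 with the smallest p where more were), and SLBP, NPAT and H2AX. A further gene of that rule is not reported here. Other genes named (NFYA, H2BC4, H2BC11, the back-to-back pairs and genes in short counts) were chosen after their values were seen.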

Additional observations from a re-analysis of the deposited data

How the results depend on the processing

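The 15 genes called higher at 10 µM kept their direction in every alternative run, and so did the 13 called over all treated libraries. For the latter, the count was 2 to 6 when a control or a 10 µM library was left out and 15 without the 20 µM library, 0 among the letter-named libraries alone and 19 among the number-named ones alone, 10 to 15 under other scalings and filters, 19 by DESeq2, 11 by voom and 17 with the replicate block. Calls over all genes moved too, from 1855 in the main fit over all treated libraries to 3395 by DESeq2, 1657 by voom and 2815 with the block. Other scalings and filters gave 1463 to 2035. At 10 µM against control the calls over all genes were 2842, and 1364 without replicate 3, 4657 with the block and 3798 by DESeq2. The histone count at 10 µM against control was 9 to 16 when a library was left out (9 without replicate 3), 23 with the replicate block and 21 by DESeq2. At 20 µM against 10 µM it was 4 to 8 in all alternatives. The replicate block also ended the call of H3C10 over all treated libraries and added H1-2, H2AC8, H2AC11, H2BC8 and H3C2. The log2 ratio of the summed level at 10 µM to control was 0.96, and 0.83 with TMM-scaled library sizes. It was 1.34 without H2BC12 and 1.28 without H2BC12 and H1-2 (the latter chosen after seeing the data). Among the letter-named libraries alone the fold change of H1-5 turned to -0.11 and that of NPAT to -0.025, neither of them called. The cause of these changes was not tested. Scaling moved the median of all genes from 0.07 (size factors of DESeq2's kind) to 0.14 (upper quartile), against 0.08 with TMM, and the histone median stayed between 0.86 and 0.95 under these 3. Items flagged as standing apart among the 4 controls numbered 0 of 38 examined. Depth limits the 20 members that could not be tested and the copies with shared sequence, and 20 µM has a single library.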
